A study of Mus musculus with 11 samples.

Results

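The genes of sterol and fatty acid synthesis were followed in the pancreas of wild-type C57Bl6J mice after experimental acute pancreatitis. They form a list of 34 genes, and 33 of them, among 19938 genes measured in all, had a probe set that carried their symbol alone. Each gene was represented by such a probe set, the one with the highest mean over all arrays where there were several. Acat2, the cytosolic acetoacetyl-CoA thiolase gene, had no such probe set and was not analysed here. The measured genes were 5 regulators, 18 sterol genes and 10 fatty acid synthesis enzymes. The caerulein group held 6 arrays, from mice given caerulein intraperitoneally at hourly intervals, 9 times in all, at a stated dose of 50 mg/kg. Caerulein is a peptide that stimulates cholecystokinin receptors and, in excess, causes pancreatitis. The NaCl group held 5 arrays from mice given sodium chloride instead. The stated number of caerulein mice is 6, the same as the number of caerulein arrays. The stated number of control mice is 4, but 5 control samples are titled, and the 5 arrays were all used. The labels give neither the age and sex of the mice nor how long after the last injection the tissue was taken, and do not say whether the arrays came from different mice. The p-values therefore cover only the variation among these arrays, which may be technical.

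Cholesterol is built from acetyl-CoA through the mevalonate pathway, which leads by way of squalene to lanosterol and then through a chain of sterol intermediates to cholesterol. Fatty acid synthesis starts from the same acetyl-CoA, and its product palmitate is lengthened by elongases and desaturated by the Scd and Fads enzymes. Both pathways are controlled by sterol regulatory element-binding proteins (SREBPs), transcription factors held in the endoplasmic reticulum together with SCAP. When sterols are scarce SCAP escorts SREBP to the Golgi, where proteases release its active part; when sterols are plentiful INSIG proteins hold the complex back. Pancreatic acinar cells carry an extensive endoplasmic reticulum and secretory membrane system whose lipids these pathways supply.

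Values are the authors' log2 expression values, and differences run as caerulein minus NaCl, each with its standard error (SE) from a limma fit over all 35556 probe sets. A gene was called higher or lower at a Benjamini-Hochberg adjusted p under 0.05. Arrays of the same group correlated at 0.981 to 0.991 and arrays of different groups at 0.938 to 0.955, and array medians were 5.20 to 5.25 with caerulein and 5.35 to 5.40 with NaCl. The median difference over all genes was -0.13. Of all genes 54.6% were called, 20.3% higher and 34.3% lower. Of 9 measured acinar markers, 3 passed the test, all lower: Rbpjl 2.69-fold, Zg16 1.61-fold and Gp2 1.14-fold. The mean level of the 9 was 13.4 to 13.5 with caerulein and 13.7 to 13.8 with NaCl, far above all other marker lists in both groups. The highest value on any array was 15.05, and differences can be compressed at such levels. Rbpjl, the dimmest of the 9, averaged 8.07 with caerulein and 9.50 with NaCl. In whole tissue, fewer cells of a type and less RNA per cell cannot be told apart. Of the 10 measured macrophage markers, 6 were higher and 1 lower (70% called, against the 54.6% of all genes). Their mean level was 5.74 to 6.56 in caerulein arrays and 5.31 to 5.49 in NaCl arrays. Their part in the results below was not tested.

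The pathways did not move as a block. Of the 33 genes, 11 were higher, 8 lower and 14 not past the threshold, with a median difference of 0.05. The called share was 57.6%, against 54.6% of all genes in either direction, 20.3% higher and 34.3% lower, so the number of calls was near the background. The direction varied from enzyme to enzyme. Msmo1, Hmgcs1, Sqle, Insig2 and Elovl1 were called and more than 2-fold higher, and Scd2 was called and 5.46-fold lower, that is 5 and 1 of the 33. Over all genes, 6.14% were called higher and 1.44% lower by at least 2-fold. The groups did not overlap in 14 of the 33 genes, 8 with caerulein on top and 6 with caerulein beneath; over all genes this held for 37.2%, with 16.7% and 20.6% in those directions.

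**Figure D1:**
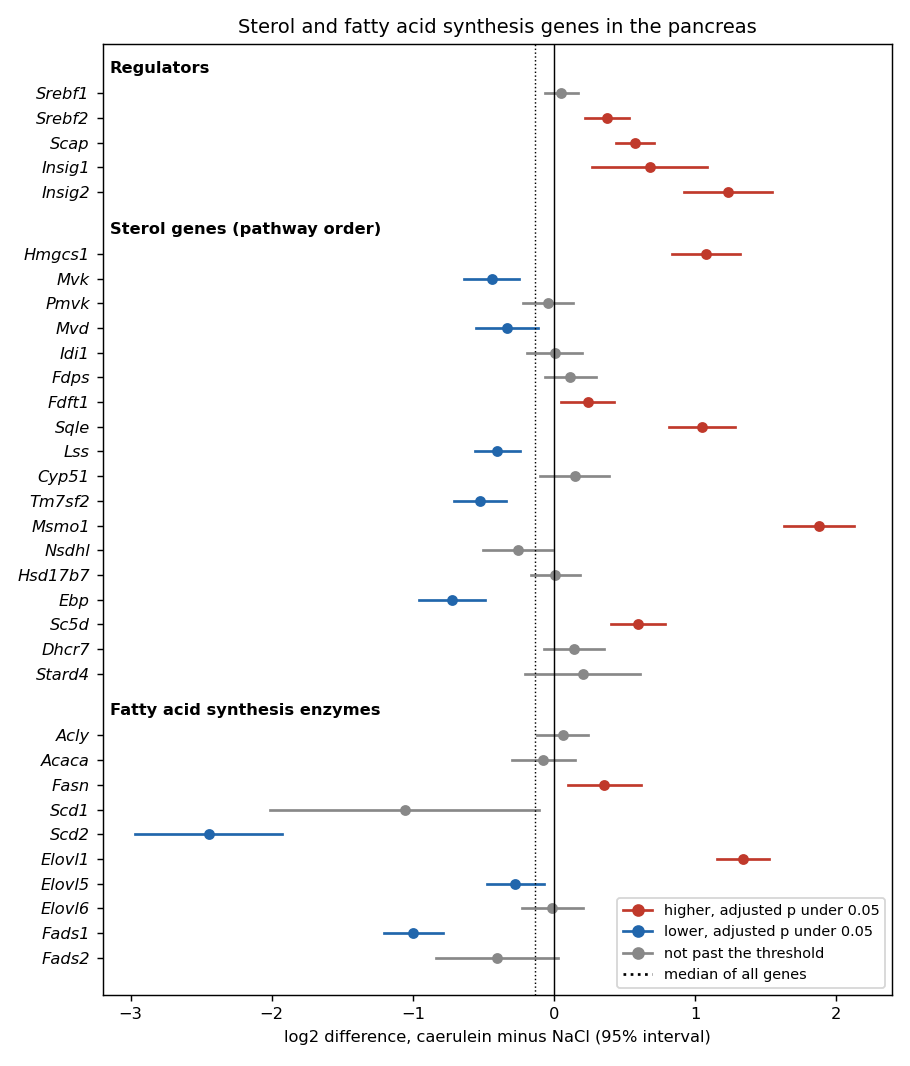
Log2 difference, caerulein minus NaCl, of each of the 33 genes (point) with its 95% interval (line), ordered by role and, for the sterol genes, by step of the pathway. Red genes were higher and blue genes lower at an adjusted p under 0.05, and grey genes did not pass. The dotted line is the median of all genes at -0.13. Some neighbouring steps of sterol synthesis, such as Sqle and Lss, lie on opposite sides of 0.

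Of the 5 regulators 4 were higher and Srebf1 did not pass, with a median difference of 0.57. That is 80% called, against 54.6% of all genes in either direction and 20.3% higher. With the arrays scaled to an equal mean of 11 common reference genes, however, 1 regulator was higher and 2 were lower. Of those reference genes 6 were themselves higher as deposited, and of all 19938 genes that scaling called 1303 higher and 17138 lower. Repeated quantile normalisation left 2 regulators higher and 1 lower, against 3844 and 4671 of all genes. Insig2, one of the INSIG retention proteins (probe set 10357280), read 8.57, 8.44, 8.53, 7.92, 8.57 and 7.87 in caerulein replicates 1 to 6, against 7.30, 7.10, 7.08, 6.996 and 6.92 in NaCl replicates 1 to 5. The groups did not overlap, and the lowest caerulein arrays were replicates 4 and 6. The difference was 1.24 (SE 0.14), or 2.36-fold (limma adjusted p = 1.82e-05). Its relative Insig1, itself a classical SREBP target (probe set 10520362), read 10.29, 9.90, 10.69, 10.52, 11.13 and 10.29 in caerulein arrays, against 10.02, 9.72, 9.44, 10.04 and 9.73 in NaCl arrays. Caerulein replicate 2 lay within the NaCl range and replicate 5 stood highest. The difference was 0.68 (SE 0.19), or 1.60-fold (limma adjusted p = 0.0109), and it did not pass after a second quantile normalisation (0.39, limma adjusted p = 0.129).

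Scap, which encodes the escort of SREBP, was 8.30 ± 0.05 (SD, n = 6) in caerulein arrays and 7.72 ± 0.10 (SD, n = 5) in NaCl arrays, a 1.49-fold rise without overlap of the groups (limma adjusted p = 9.73e-06). Srebf2, the SREBP gene devoted mainly to cholesterol synthesis, was 7.79 ± 0.12 (SD, n = 6) in caerulein arrays and 7.41 ± 0.06 (SD, n = 5) in NaCl arrays, a 1.30-fold rise, again without overlap (limma adjusted p = 0.000947). After a second quantile normalisation its difference was 0.09 (adjusted p = 0.352), and with the reference gene scaling the differences of Scap, Srebf2 and Insig1 turned to -0.14, -0.34 and -0.04, against a median of -0.85 for all genes. Srebf1, whose products mainly drive fatty acid synthesis, ranged from 7.30 to 7.42 in caerulein arrays and from 7.25 to 7.37 in NaCl arrays. Its difference of 0.05 did not pass, with a 95% interval from -0.06 to 0.17, but Srebf1 was called lower after repeated quantile normalisation (-0.20, adjusted p = 0.013) and with the reference gene scaling (-0.66, adjusted p = 1.03e-06). Its spread within groups was among the smallest of all genes, with a pooled SD of 0.05 against a median of 0.14. The within-array difference of Srebf1 and Srebf2 is unaffected by a constant shift of an array. It moved by -0.32, that is, toward Srebf2 in caerulein arrays (exact two-sided permutation test, p = 0.00433; adjusted p = 0.0130 over 6 gene pairs), and the groups did not overlap. The same comparison of Insig1 with Insig2 moved by -0.56, toward Insig2, and missed the threshold (exact permutation p = 0.0433, adjusted p = 0.0545).

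Of the 18 sterol genes 5 were higher, 5 lower and 8 not past the threshold, so that 55.6% were called, near the 54.6% of all genes, and the median difference was 0.06. Msmo1, the methylsterol monooxygenase that starts the removal of the methyl groups at carbon 4 of the sterol ring (probe set 10578916), showed the strongest rise of all 33 genes under each of the 5 scalings tried. It read 8.70, 8.74, 8.77, 9.18, 9.28 and 9.07 in caerulein arrays, against 7.20, 7.07, 6.93, 7.14 and 7.05 in NaCl arrays. Every caerulein array stood far above every NaCl array, and replicates 4 to 6 stood above replicates 1 to 3. The rise was 3.68-fold, a difference of 1.88 (SE 0.11, limma adjusted p = 4.28e-08), which ranked 294 of 19938 genes from the top.

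Hmgcs1, the cytosolic HMG-CoA synthase at the entry of the mevalonate pathway (probe set 10412466), read 7.05, 6.63, 6.82, 7.20, 7.25 and 7.13 in caerulein arrays, against 5.93, 5.80, 5.91, 6.12 and 5.91 in NaCl arrays. No arrays overlapped, and the rise was 2.11-fold (difference 1.08, SE 0.11, limma adjusted p = 6.03e-06). Sqle, the squalene epoxidase that makes the first oxygenated intermediate (probe set 10424349), read 7.33, 6.89, 6.75, 7.23, 7.15 and 7.10 in caerulein arrays, against 6.09, 5.99, 5.87, 5.95 and 6.25 in NaCl arrays. It too separated the groups in full, with a 2.07-fold rise (limma adjusted p = 5.98e-06). In both genes caerulein replicates 2 and 3 were the lowest of their group. Sc5d, the lathosterol desaturase near the end of the pathway, was 8.07 ± 0.12 (SD, n = 6) in caerulein arrays and 7.47 ± 0.17 (SD, n = 5) in NaCl arrays, a 1.51-fold rise without overlap (limma adjusted p = 0.000148) that became -0.12 on the log2 scale with the reference gene scaling. Fdft1, squalene synthase, was 1.18-fold higher (limma adjusted p = 0.0418), but NaCl replicate 2 at 8.25 lay within the caerulein range of 8.11 to 8.34. This call was lost when any one of 8 of the 11 arrays was left out, and its sign turned after a second quantile normalisation (-0.07). Its second probe set, which was dimmer, was also higher, with a difference of 0.44 (limma adjusted p = 0.0105).

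The sterol genes that fell are interleaved with those that rose. Ebp, the sterol isomerase that shifts the double bond in the second ring (probe set 10603485), fell most among them. It read 5.63, 5.49, 5.70, 5.65, 5.74 and 5.88 in caerulein arrays, against 5.99, 6.64, 6.48, 6.44 and 6.47 in NaCl arrays. The groups did not overlap, although NaCl replicate 1 came close to the caerulein range. The fall was 1.65-fold (difference -0.72, SE 0.11, limma adjusted p = 0.000159). Tm7sf2, a sterol reductase acting just after Cyp51, read 6.17 to 6.53 in caerulein arrays and 6.71 to 6.98 in NaCl arrays, a 1.44-fold fall (limma adjusted p = 0.000305). Lss, the cyclase that folds the product of Sqle into lanosterol, read 5.25 to 5.47 in caerulein arrays and 5.59 to 5.93 in NaCl arrays, a 1.32-fold fall (limma adjusted p = 0.000793). Both separated the groups. Mvk, mevalonate kinase, was 6.84 ± 0.14 (SD, n = 6) in caerulein arrays and 7.28 ± 0.15 (SD, n = 5) in NaCl arrays, a 1.36-fold fall without overlap (limma adjusted p = 0.00162). Mvd, the decarboxylase that yields isopentenyl pyrophosphate, fell 1.26-fold (limma adjusted p = 0.0176), but NaCl replicate 2, at 6.39, lay among the caerulein arrays.

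For 8 sterol genes the test gave no call. Idi1 (isopentenyl pyrophosphate isomerase), Hsd17b7 (a sterol ketone reductase) and Pmvk (phosphomevalonate kinase) had differences of 0.01, 0.01 and -0.04, with 95% intervals of -0.19 to 0.20, -0.16 to 0.18 and -0.22 to 0.13. Fdps (farnesyl pyrophosphate synthase), Cyp51 (lanosterol demethylase) and Dhcr7 (a late sterol reductase) had differences of 0.12, 0.15 and 0.14, with interval ends between -0.10 and 0.39. Cyp51 was called higher after cyclic loess (0.33, adjusted p = 0.0331) and lower with the reference gene scaling (-0.57, adjusted p = 0.000778). On the array scale, the 6 intervals exclude differences as large as those of Msmo1, Hmgcs1 or Sqle as deposited. Idi1, Cyp51, Pmvk and Hsd17b7 were dim, however, with mean levels at percentiles 35.4, 29, 44.1 and 49.6 of all genes. Compression at low levels may hide larger changes of their RNA. Nsdhl, which acts on the product of Msmo1, differed by -0.26 (95% interval -0.50 to -0.01, limma adjusted p = 0.0844). It was called lower without NaCl replicate 1 (-0.33, adjusted p = 0.0298), with the same 75th percentile (-0.32, adjusted p = 0.036) and with the reference gene scaling (-0.97, adjusted p = 5.35e-06), whereas cyclic loess brought it to -0.0694. Stard4, a sterol carrier protein and not an enzyme, was the most variable sterol gene, at 4.91 to 5.61 in caerulein arrays and 4.44 to 5.48 in NaCl arrays, so its interval of -0.20 to 0.61 leaves both directions.

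**Figure D2:**
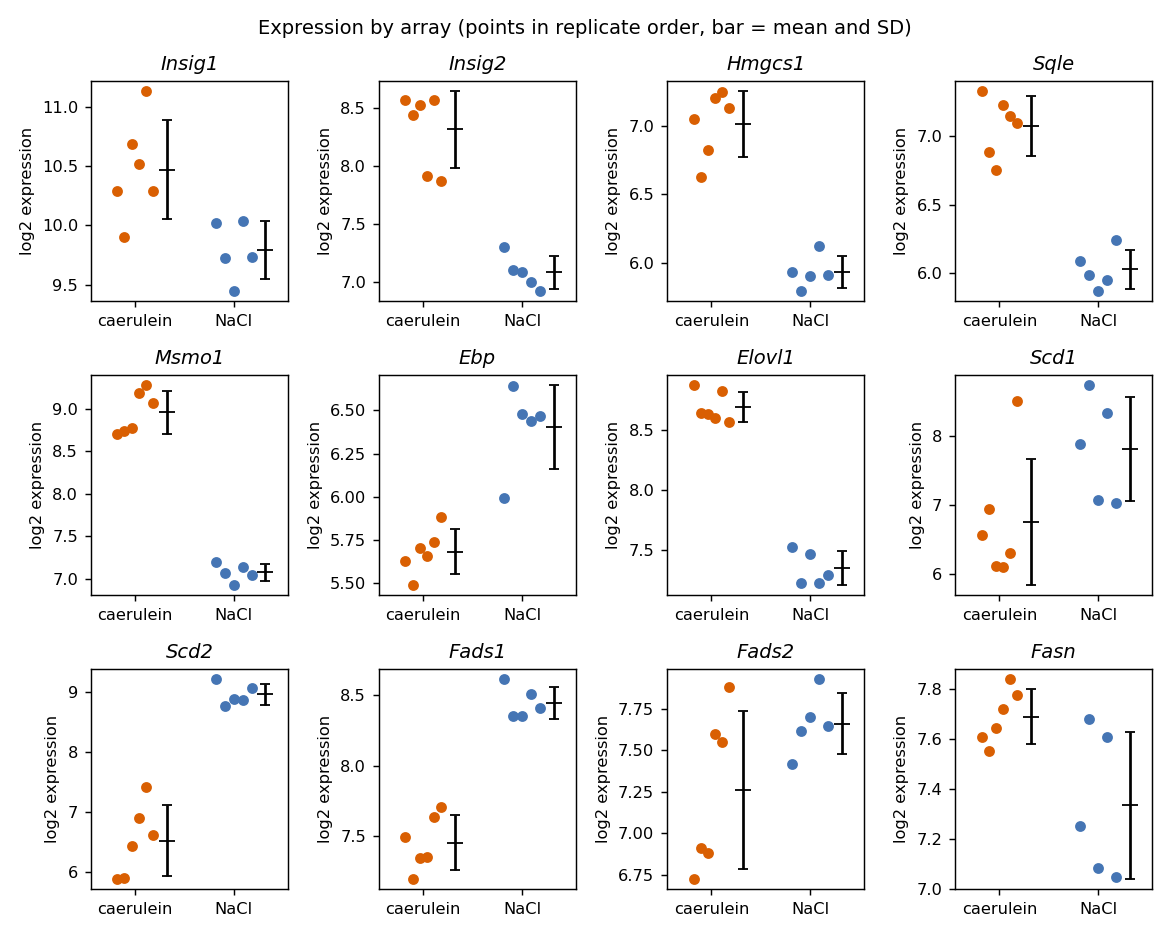
Log2 expression of 12 of the genes on every array, caerulein (orange, 6 arrays) left of NaCl (blue, 5 arrays), with points in replicate order and black bars for the mean and SD; each panel has its own vertical scale. Msmo1, Hmgcs1, Sqle, Insig2 and Elovl1 separate the groups upward and Scd2, Fads1 and Ebp downward, whereas Insig1, Scd1, Fads2 and Fasn overlap.

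Promoter sequences were available in the RefSeq table (build GRCm38.p6) for 26 of the 33 genes, in 35 windows, and the 250 bases before the transcription start were searched on both strands. Those of 3 genes that rose and 3 that fell are shown, so that the promoters of genes moving in opposite directions can be read side by side. Nuclear factor Y (NF-Y), a trimeric factor that cooperates with SREBP at sterol gene promoters, binds CCAAT. All 14 sterol genes with a window held CCAAT in at least 1 of theirs, and it was in 82.4% of their 17 windows, against 33.8% of all 32851 windows. For the fatty acid synthesis enzymes the genes were 3 of 7, and for the regulators 4 of 5. Of all 27025 genes with a window, 10133 held CCAAT in at least 1. By call, 8 of 9 higher, 6 of 6 lower and 7 of 11 genes not past the threshold held it. The windows also differed in base composition, with a median of 62.8% G and C for these genes and 52.4% for all. GGGCGG, which Sp1 binds, was in 71.4% of the 35 windows and 32.7% of all, CACGTG in 17.1% and 6.02%, and TCACNCCAC, a form of the sterol regulatory element, in 2.86% and 1.05%. The only one of these genes with TCACNCCAC was Hmgcs1. Below, capitals mark CCAAT or its reverse complement ATTGG and, in Hmgcs1, TCACNCCAC, which overlaps no CCAAT there; the first 3 genes were higher and the last 3 lower after caerulein.
Insig1 (chr5:28071162-28071411, plus strand): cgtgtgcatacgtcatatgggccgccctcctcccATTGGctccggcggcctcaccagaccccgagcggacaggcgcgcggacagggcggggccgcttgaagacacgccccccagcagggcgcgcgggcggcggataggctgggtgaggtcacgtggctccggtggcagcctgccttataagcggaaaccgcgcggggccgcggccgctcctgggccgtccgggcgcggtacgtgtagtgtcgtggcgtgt
Hmgcs1 (chr13:119690101-119690350, plus strand): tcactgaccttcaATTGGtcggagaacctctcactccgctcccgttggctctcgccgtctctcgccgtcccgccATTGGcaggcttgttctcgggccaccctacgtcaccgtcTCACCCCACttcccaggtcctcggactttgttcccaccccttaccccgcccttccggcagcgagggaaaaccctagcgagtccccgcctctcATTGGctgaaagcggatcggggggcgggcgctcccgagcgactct
Msmo1 (chr8:64733579-64733828, minus strand): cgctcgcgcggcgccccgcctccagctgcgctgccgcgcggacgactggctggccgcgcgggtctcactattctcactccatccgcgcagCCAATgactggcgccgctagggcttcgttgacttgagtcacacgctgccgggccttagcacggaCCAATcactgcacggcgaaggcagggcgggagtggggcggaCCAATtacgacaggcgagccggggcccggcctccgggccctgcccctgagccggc
Tm7sf2 (chr19:6067851-6068100, minus strand): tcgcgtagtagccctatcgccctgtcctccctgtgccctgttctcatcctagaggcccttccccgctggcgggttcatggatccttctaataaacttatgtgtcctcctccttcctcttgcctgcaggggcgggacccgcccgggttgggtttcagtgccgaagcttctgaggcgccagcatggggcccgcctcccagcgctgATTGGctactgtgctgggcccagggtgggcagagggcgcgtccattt
Ebp (chrX:8193513-8193762, minus strand): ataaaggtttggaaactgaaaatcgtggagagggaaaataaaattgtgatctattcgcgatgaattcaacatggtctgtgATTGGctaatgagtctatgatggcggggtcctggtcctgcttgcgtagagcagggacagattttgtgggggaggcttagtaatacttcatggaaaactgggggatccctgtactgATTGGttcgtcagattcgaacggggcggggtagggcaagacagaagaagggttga
Lss (chr10:76531355-76531604, plus strand): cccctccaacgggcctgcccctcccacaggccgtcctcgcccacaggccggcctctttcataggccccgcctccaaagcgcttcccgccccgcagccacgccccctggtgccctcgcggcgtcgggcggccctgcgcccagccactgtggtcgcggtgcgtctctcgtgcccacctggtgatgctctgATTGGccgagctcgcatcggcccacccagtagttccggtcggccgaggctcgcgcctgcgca
Hmgcs1 and Msmo1 each held 3 CCAAT boxes, Ebp 2, and Insig1, Tm7sf2 and Lss 1 each. The box nearest to the start began 45 bases before it in Hmgcs1, 55 in Msmo1 and Ebp, 47 in Tm7sf2 and 62 in Lss, and the one of Insig1 lay 216 bases before it. The TCACNCCAC match of Hmgcs1 began 137 bases before the start. Such matches describe the letters of these windows and show no binding. The genes of NF-Y itself were measured: Nfya, Nfyb and Nfyc were 1.64-fold, 2.86-fold and 1.32-fold higher (limma adjusted p = 6.14e-05, 9.98e-08 and 0.00288). Of these, Nfya and Nfyc are named here after their values were seen. With the reference gene scaling, only the whole list of SREBP processing and cofactor genes that holds them was counted. It had 2 higher and 12 lower, against 1303 and 17138 of all 19938 genes, which does not give the calls of these 3.

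Fatty acid synthesis enzymes had 2 of 10 higher, 3 lower and 5 not past the threshold, near the 20.3% higher and 34.3% lower of all genes, and their median difference of -0.17 was near the -0.13 of all genes. Of the 3 enzymes that build palmitate, Fasn alone passed. Acly, which makes cytosolic acetyl-CoA from citrate, read 7.79 to 8.13 in caerulein arrays and 7.75 to 8.12 in NaCl arrays, and Acaca, the carboxylase that commits it, read 5.69 to 6.16 in caerulein arrays and 5.80 to 6.23 in NaCl arrays. Their differences of 0.06 and -0.08 did not pass, with 95% intervals of -0.12 to 0.24 and -0.30 to 0.15. Fasn, fatty acid synthase, read 7.61, 7.55, 7.64, 7.72, 7.84 and 7.78 in caerulein arrays, against 7.25, 7.68, 7.08, 7.61 and 7.05 in NaCl arrays. NaCl replicates 2 and 4 lay inside the caerulein range, and the other NaCl arrays lay below it. The 1.28-fold rise passed narrowly (difference 0.36, SE 0.12, limma adjusted p = 0.0289), and it was lost when any one of 5 arrays was left out and under 5 of the 9 other alternatives. Set against Fasn within each array, Hmgcs1 rose by 0.72 (exact two-sided permutation test, p = 0.00216, the smallest that 462 splits allow; adjusted p = 0.0130 over 6 pairs), without overlap of the groups.

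Of the desaturases among the listed fatty acid synthesis enzymes, Scd2 and Fads1 were called, and both fell. Scd2, a stearoyl-CoA desaturase that makes monounsaturated fatty acids (probe set 10463355), read 5.88, 5.89, 6.42, 6.89, 7.42 and 6.61 in caerulein arrays, against 9.23, 8.77, 8.89, 8.88 and 9.06 in NaCl arrays. The NaCl arrays were tightly grouped, whereas the caerulein arrays spread over more than 1 log2 unit and all lay lower. The 5.46-fold fall (difference -2.45, SE 0.24, limma adjusted p = 3.79e-06) ranked 13 of 19938 genes from the bottom. Its paralog Scd1, the main form of liver and fat (probe set 10467979), read 6.57, 6.94, 6.11, 6.10, 6.31 and 8.52 in caerulein arrays, against 7.88, 8.74, 7.08, 8.34 and 7.04 in NaCl arrays. Caerulein replicate 6 stood far above the rest of its group, and the NaCl arrays were themselves widely spread. The difference of -1.06 (SE 0.44) did not pass (limma adjusted p = 0.0677), but without caerulein replicate 6 it did (-1.41, adjusted p = 0.00411), as it did without NaCl replicate 5 (-1.25, adjusted p = 0.0478). Scd1 was also called lower with the same 75th percentile (-1.12, adjusted p = 0.0457), the reference gene scaling (-1.77, 0.00123), repeated quantile normalisation (-1.23, 0.0389) and the dimmer probe sets left out (-1.06, 0.0412). The spread of Scd1 within groups ranked 7 of 19938 genes. The within-array difference of Scd1 and Scd2 moved by 1.39 and missed the threshold (exact permutation p = 0.0563, adjusted p = 0.0563). The Scd genes are close in sequence, and their probes may not separate them fully.

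Markers of fat cells were looked at beside Scd1, since adipose tissue can adhere to the pancreas. Of 10 measured adipocyte markers, 1 was higher and 5 lower, where 20.3% of all genes were higher and 34.3% lower. Their mean level was 5.26 to 5.54 in caerulein arrays and 5.46 to 5.75 in NaCl arrays. Adipoq, the adiponectin gene, read 4.04, 4.03, 4.14, 3.97, 3.86 and 4.75 in caerulein arrays, against 4.15, 4.78, 4.07, 5.06 and 3.93 in NaCl arrays. It was highest in caerulein replicate 6 and NaCl replicates 2 and 4, which were also the 3 arrays with the highest Scd1; NaCl replicates 2 and 4 were also the highest NaCl arrays for Fasn. The 10 markers did not all share this order. Caerulein replicate 6 was the highest caerulein array for 5 of them, NaCl replicates 2 and 4 were the highest NaCl arrays for 7, and both held for 4. Plin1, a fat droplet coat gene, read 5.52 in caerulein replicate 6, below the 5.60 of caerulein replicate 3, and Plin4, a relative, had its lowest NaCl value, 6.44, in NaCl replicate 4. Scd2 did not follow the order of Adipoq either. The part of fat cells in the values of Scd1 and Fasn was not tested.

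Fads1 and Fads2 introduce double bonds into polyunsaturated fatty acids. Fads1, the delta-5 desaturase (probe set 10461439), read 7.49, 7.19, 7.34, 7.35, 7.63 and 7.71 in caerulein arrays, against 8.62, 8.35, 8.35, 8.51 and 8.41 in NaCl arrays. It fell 1.99-fold with no overlap (difference -0.996, SE 0.10, limma adjusted p = 3.51e-06). Fads2, the delta-6 desaturase, read 6.72, 6.91, 6.88, 7.60, 7.55 and 7.88 in caerulein arrays, against 7.42, 7.61, 7.70, 7.93 and 7.65 in NaCl arrays. Caerulein replicates 1 to 3 lay below every NaCl array, while replicates 4 to 6 lay within the NaCl range. The difference of -0.40 (95% interval -0.84 to 0.03) did not pass (limma adjusted p = 0.117). Without caerulein replicate 6 it passed at -0.53 (adjusted p = 0.0321), as it did after repeated quantile normalisation (-0.66, adjusted p = 0.0136) and with the reference gene scaling (-1.12, adjusted p = 7.73e-05). Against Fads2 within each array, Fads1 moved by -0.59 (exact permutation p = 0.0216, adjusted p = 0.0433), and this call was lost when any one of 9 of the 11 arrays was left out.

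Among the elongases, Elovl1, which extends saturated and monounsaturated very long chains (probe set 10507539), read 8.87, 8.64, 8.63, 8.60, 8.82 and 8.57 in caerulein arrays, against 7.53, 7.23, 7.47, 7.23 and 7.29 in NaCl arrays. Both groups were tight and far apart, a 2.53-fold rise (difference 1.34, SE 0.08, limma adjusted p = 5.70e-08). Elovl5, which extends polyunsaturated chains, was 7.07 ± 0.18 (SD, n = 6) in caerulein arrays and 7.34 ± 0.11 (SD, n = 5) in NaCl arrays. The 1.21-fold fall passed (limma adjusted p = 0.0297) but was lost when any one of 4 arrays was left out. Elovl6, which extends palmitate to stearate, differed by -0.01, with a 95% interval of -0.23 to 0.20. Elovl5 against Elovl6 within each array moved by -0.26 and missed the threshold (exact permutation p = 0.0455, adjusted p = 0.0545).

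**Figure D3:**
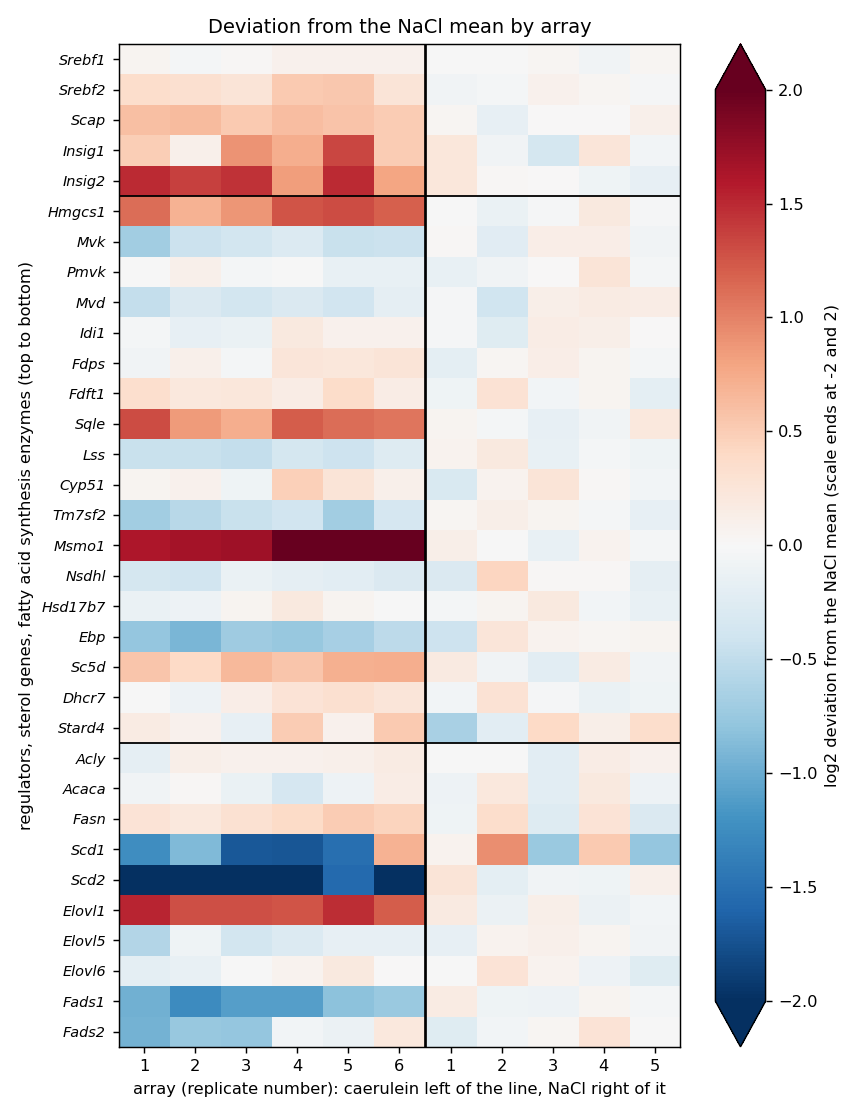
Deviation of each gene from its NaCl mean on every array, in log2 units, with the 6 caerulein arrays left of the line and the 5 NaCl arrays right of it; the colour scale ends at -2 and 2. Msmo1, Hmgcs1, Sqle, Insig2 and Elovl1 are red and Scd2 and Fads1 blue across all caerulein arrays, while Scd1 departs in caerulein replicate 6 and Fads2 in replicates 4 to 6.

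The genes around these pathways were counted from 5 further lists, against the same 54.6% of all genes called, 20.3% higher and 34.3% lower. Of 18 genes of SREBP processing and its cofactors, 12 were higher and 2 lower (77.8% called), with a median difference of 0.43. The counts became 2 higher and 12 lower with the reference gene scaling, against 1303 and 17138 of all 19938 genes. As deposited, Prkaa1, a catalytic subunit of AMP-activated protein kinase, which restrains lipid synthesis, was 3.78-fold higher, and the NF-Y subunit gene Nfyb came next. Ppargc1b, a coactivator of SREBP, and Fbxw7, a ubiquitin ligase subunit that marks SREBP for degradation, fell 1.45-fold and 1.35-fold. Sterol uptake, transport, storage and efflux had 6 higher and 6 lower among 21 genes (57.1% called, median -0.07). Tmem97, the sigma-2 receptor, a sterol-responsive protein of the endoplasmic reticulum, fell 4.97-fold by the brighter of its 2 probe sets. That set read 8.54 ± 0.23 (SD, n = 6) in caerulein arrays, against 10.85 ± 0.17 (SD, n = 5) in NaCl arrays (limma adjusted p = 8.59e-09). The dimmer set is not reported here. Cyp46a1, a cholesterol hydroxylase, fell 1.45-fold. Ch25h, which makes 25-hydroxycholesterol, and Scarb2, a lysosomal membrane protein, were 1.72-fold and 1.42-fold higher. Each of these genes passed the limma test, and the groups did not overlap in any of them.

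In the isoprenoid branch, which turns mevalonate products into prenyl groups and dolichol, 6 of 13 genes rose and 1 fell (median 0.12). The called share was 53.8%, near the 54.6% of all genes, of which 20.3% were higher and 34.3% lower. Rabggta, which prenylates Rab proteins, and Nus1, a subunit of the dolichol-making prenyltransferase, were 1.58-fold and 1.57-fold higher, and Dolpp1, a dolichyl pyrophosphate phosphatase, was 1.42-fold lower. Of 26 further genes of fatty acid supply, elongation and activation, 8 rose and 10 fell (69.2% called, median -0.13). The elongase gene Elovl7 was 10.7-fold higher, at 8.40 ± 0.12 (SD, n = 6) in caerulein arrays and 4.98 ± 0.24 (SD, n = 5) in NaCl arrays (limma adjusted p = 1.37e-10), and Me1, malic enzyme, a source of NADPH, 6.39-fold (limma adjusted p = 3.80e-06). Tecr and Hacd3, which act in later steps of the elongation cycle, fell 2.33-fold and 1.49-fold. Hacd1 and Hacd2, relatives of Hacd3, rose 3.64-fold and 1.52-fold, and Hsd17b12 of the same cycle rose 1.71-fold. These 3 passed the limma test and are named here after their values were seen. Among 25 genes of glycerolipid synthesis and lipid droplets, 11 rose and 5 fell (64% called, median 0.12). The droplet coat gene Plin2 was 10.5-fold higher, at 9.39 ± 0.15 (SD, n = 6) in caerulein arrays and 5.99 ± 0.43 (SD, n = 5) in NaCl arrays (limma adjusted p = 6.40e-09). Lpin2 was 2.95-fold higher and its relative Lpin1 1.97-fold lower, both phosphatidate phosphatases, and Gpam, the mitochondrial enzyme that starts glycerolipid synthesis, was 1.75-fold lower. In all of these named genes too the groups did not overlap.

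The calls depended in part on how the arrays were scaled. The median difference of all genes was -0.19 when arrays were shifted to the same 75th percentile, -0.06 after repeated quantile normalisation and -0.02 after cyclic loess. With an equal mean of 11 commonly used reference genes it was -0.85, and 6 of these 11 genes, among them Actb at 7.64-fold, were themselves higher as deposited. In that setting 5 of the 33 genes were higher and 25 lower, against 11 and 8 as deposited, and in the other 4 pathway lists at most 5 genes were higher and at least 9 lower. Most genes on the arrays were called lower in it, with 1303 of all 19938 genes higher and 17138 lower. Under all 5 scalings 13 of the 33 genes kept the same call and direction. They were Insig2, Hmgcs1, Sqle, Msmo1 and Elovl1, which were higher, and Mvk, Mvd, Lss, Tm7sf2, Ebp, Scd2, Elovl5 and Fads1, which were lower. The sizes did not all hold, however. With the reference genes the difference was 1.16 for Msmo1, 0.62 for Elovl1, 0.52 for Insig2, 0.36 for Hmgcs1 and 0.33 for Sqle, so that Msmo1 alone remained more than 2-fold higher, and Insig2 was at 0.98 after repeated quantile normalisation.

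**Figure D4:**
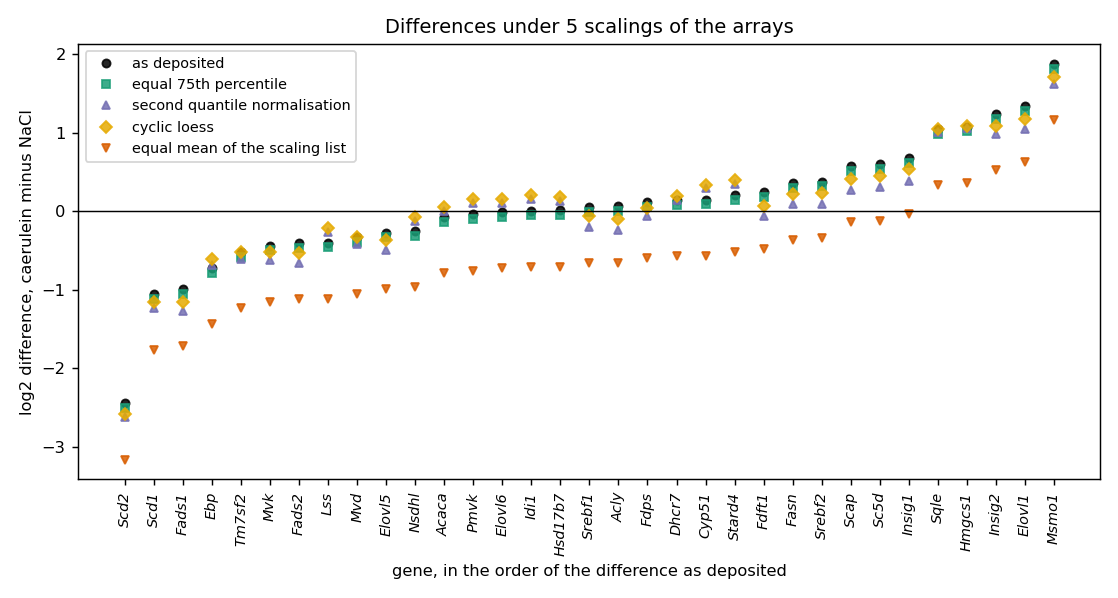
Log2 difference, caerulein minus NaCl, of the 33 genes under 5 scalings of the arrays, ordered by the difference as deposited (black). The equal mean of the reference genes (orange) lies below the others throughout, and Msmo1, Elovl1, Insig2, Hmgcs1 and Sqle stay above 0 under every scaling.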

How the data were processed

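Each sample's pancreatic total RNA was put on its own Affymetrix array with a biotin label, and degraded RNA had been left out, per the labels' protocols. Per the submitters' processing notes, the processing used RMA, oligo and limma, and the values the authors deposited are log2 expression. Versions and genome build: not given in the sources used here. Very low and very high levels can be compressed by RMA, and without detection calls it is unknown whether a dim probe set lay above background. Precision is limited by having 11 arrays.

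Of 35556 probe sets, 21789 carried 1 symbol in the platform annotation, 1621 several and 12146 were not listed. Groups came from the titles. The comparison used lmFit and eBayes of limma 3.58.1 (R 4.3.3), two-sided and without covariates, with Benjamini-Hochberg adjustment over all probe sets. The fit was tested on simulated data. Gene pairs were compared by exact permutation over arrays. Intervals are 95%.

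The members and lists were chosen with earlier results of these data known. Named genes are every measured member and, from each of 5 pathway lists, the 2 called genes with the largest rise and the 2 with the largest fall. Some pathway genes outside this rule, such as Nfya and Hacd1, were named after their values were seen. Of the named pathway genes, Tmem97, Fbxw7, Nfyc, Me1, Hacd1 and Hacd2 had 2 probe sets each, and only the brighter is reported. Lists of adipocyte, macrophage, acinar, neutrophil and T and B cell markers were fixed too. Of these, 2 of 10 neutrophil markers and 5 of 8 T and B cell markers passed the test, all lower, against 34.3% of all genes lower. Alternatives were other scalings, a trended robust prior, array weights, leaving out the dimmer 50 percent of probe sets, averaging probe sets, blocking on the replicate number and leaving out each array.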

Additional observations from a re-analysis of the deposited data

Results flagged for a closer look

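Within-group gaps were looked for in 66 groups, the 6 caerulein and the 5 NaCl arrays of each of the 33 genes, and 3 held an array far from the others by Dixon's criterion. Chance gives about 1 such group in 20. Scd1 read 8.52 in caerulein replicate 6, while the other caerulein arrays lay between 6.10 and 6.94. Acly read 7.79 in caerulein replicate 1, below the other caerulein arrays at 8.06 to 8.13. Dhcr7 read 6.57 in NaCl replicate 2, above the other NaCl arrays at 6.15 to 6.26.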

How the results depend on the processing

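Of the 33 genes, 12 kept their call and direction under all 9 alternatives that left out no array and in all 11 fits that left out an array; setting aside the reference gene scaling, 15 did. Idi1, Cyp51 and Stard4 had no value with the dimmer probe sets left out and are not counted. That scaling gave, higher and lower, 1 and 2 regulators, 3 and 14 sterol genes, 1 and 9 fatty acid synthesis enzymes, 2 and 12 SREBP processing genes, 0 and 20 sterol uptake and transport genes, 0 and 9 isoprenoid genes, 5 and 19 fatty acid supply genes, and 3 and 15 glycerolipid genes. Of all 19938 genes it called 1303 higher and 17138 lower. An equal 75th percentile gave 1 higher fatty acid synthesis enzyme and 3 lower isoprenoid genes, and cyclic loess 1 higher enzyme. A second quantile normalisation gave 2 higher and 1 lower regulators, 1 and 6 enzymes, and 3 lower isoprenoid genes. Leaving out an array gave 1 to 2 higher and 2 to 5 lower enzymes and 1 to 2 lower isoprenoid genes. Of all called genes 62.8% were lower as deposited, against 71.1%, 92.9%, 54.9% and 45.4% with the 75th percentile, the reference genes, quantile normalisation and cyclic loess. The cause was not tested.

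The deviations of same-numbered caerulein and NaCl arrays from their group means correlated weakly (0.06, 0.02, 0.06, -0.05 and 0.03). Even so, 4 of 5 caerulein arrays correlated best with the NaCl array of their own number. Whether the numbers mark pairs is not known. With the replicate block, which drops caerulein replicate 6, 9 genes were higher and 10 lower, among them 1 and 5 enzymes, and 2 isoprenoid genes were lower; Scd1 (-1.41) and Fads2 (-0.53) were called lower. Under the block the exact test cannot go below 0.0625, and Srebf1 minus Srebf2 moved by -0.35, Fads1 minus Fads2 by -0.52 and Hmgcs1 minus Fasn by 0.715 (exact permutation adjusted p = 0.0938 for each).

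Quantile normalisation brought Insig1 minus Insig2 to -0.59, Scd1 minus Scd2 to 1.40 and Elovl5 minus Elovl6 to -0.60 (exact permutation adjusted p = 0.0416, 0.0476 and 0.00866), and cyclic loess the last to -0.52 (0.0173). Without an array these ran from -0.65 to -0.42, 1.06 to 1.67 and -0.33 to -0.22, and Fads1 minus Fads2 from -0.71 to -0.49.

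Signs turned as follows. With the reference genes, Srebf1 was -0.66, Srebf2 -0.34, Scap -0.14, Insig1 -0.0375, Idi1 -0.71, Fdps -0.60, Fdft1 -0.48, Cyp51 -0.57, Hsd17b7 -0.71, Sc5d -0.12, Dhcr7 -0.57, Stard4 -0.51, Acly -0.66 and Fasn -0.36. After quantile normalisation, Srebf1 was -0.20, Pmvk 0.10, Fdps -0.0635, Fdft1 -0.0672, Acly -0.24, Acaca 0.0023 and Elovl6 0.10. After cyclic loess, Srebf1 was -0.062, Pmvk 0.15, Acly -0.11, Acaca 0.0472 and Elovl6 0.15. With the 75th percentile, Srebf1 was -0.0077, Idi1 -0.0542, Hsd17b7 -0.0506 and Acly -0.0002. Idi1 was -0.007 with array weights, -0.0114 with averaged probe sets and -0.0095 with the block, and Elovl6 0.0287 with array weights. Without an array Idi1 ran from -0.0543 to 0.0429, Hsd17b7 from -0.0254 to 0.0577, Elovl6 from -0.0728 to 0.0572 and Pmvk from -0.0792 to 0.0243. The 11 arrays limit the precision of all these values.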

Other observations

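The genes differed widely in how much they varied between arrays of the same group. The pooled SD within groups had a median of 0.17 over the 33 genes, against 0.14 over all 19938 genes. Scd1 had 0.85 and ranked 7 from the largest, Scd2 had 0.46 and ranked 78, Fads2 had 0.38 and ranked 184, and Insig1 had 0.35 and ranked 232. At the other end Srebf1 had 0.05 and ranked 19876.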
